A study of Mus musculus with 12 samples.

Results

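The genes that carry WNT signals between cells were followed in mouse embryonic stem cells (ESCs) and in embryoid bodies (EBs). They were taken by gene symbol: every Wnt ligand, every frizzled (Fzd) receptor, the co-receptors Lrp5, Lrp6, Ror1 and Ror2, the 4 R-spondins (Rspo), the receptors Lgr4, Lgr5 and Lgr6, and the secreted inhibitors of the Sfrp and Dkk families with Frzb and Wif1. The symbols found 50 genes among the 52636 in the count tables: 19 ligands, 10 frizzled receptors, 4 co-receptors, 4 R-spondins, 3 LGR receptors and 10 inhibitors. All cells were E14, a line of ESCs from a mouse blastocyst. Wild-type (WT) cells were compared with cells in which an shRNA knocked down (KD) circKat6b-e2, a circular RNA of the gene Kat6b. Both were sequenced as undifferentiated ESCs and as EBs at day 6, with 3 libraries in each of the 4 groups, which the series calls biological replicates. ESCs of both kinds were kept with LIF and with inhibitors of MEK and of GSK3, and GSK3 is the kinase that marks beta-catenin for degradation, so the medium itself acts inside this pathway. Whether WT cells carried a control shRNA, and whether KD cells were 1 clone or a pool, is not given in the sources used here. A KD minus WT difference therefore includes whatever else set the 2 populations apart.

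WNT proteins are secreted, lipid-modified ligands that bind a frizzled receptor together with a co-receptor. With LRP5 or LRP6 the signal stabilises beta-catenin, which enters the nucleus and acts with TCF and LEF factors. With ROR1 or ROR2, and typically with WNT5A, it acts on cell shape and movement without beta-catenin. R-spondins bind LGR receptors and keep frizzled receptors on the surface, SFRP proteins, FRZB and WIF1 bind WNTs outside the cell, and DKK1 and DKK2 block LRP5 and LRP6. In the early embryo Wnt3 is needed for the primitive streak, and in ESC culture activation of the beta-catenin branch helps to hold the undifferentiated state.

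The stretches just before the start sites are shown for the 4 members with the largest change between KD and WT EBs whose start the RefSeq promoter table (GRCm38.p6) holds, Wnt9b, Dkk2, Rspo4 and Ror1, for Wnt3, the neighbour of Wnt9b, and for Fzd7, the frizzled mRNA at the highest level in WT EBs. Capitals mark 7-letter words that TCF and LEF factors are known to bind, read on both strands. These are CTTTGAA, a second word CTTTGAT, a further word CTTTGTA and finally CTTTGTT. Words on the same strand cannot overlap, though words on opposite strands can. Bases that lie in an annotated exon were left out.
Wnt9b (chr11:103749822-103750071, minus strand): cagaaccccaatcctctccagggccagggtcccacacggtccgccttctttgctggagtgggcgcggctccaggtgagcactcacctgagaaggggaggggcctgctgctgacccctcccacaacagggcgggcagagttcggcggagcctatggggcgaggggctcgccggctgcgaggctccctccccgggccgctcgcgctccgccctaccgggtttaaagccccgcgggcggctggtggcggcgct
Wnt3 (chr11:103773925-103774149, plus strand): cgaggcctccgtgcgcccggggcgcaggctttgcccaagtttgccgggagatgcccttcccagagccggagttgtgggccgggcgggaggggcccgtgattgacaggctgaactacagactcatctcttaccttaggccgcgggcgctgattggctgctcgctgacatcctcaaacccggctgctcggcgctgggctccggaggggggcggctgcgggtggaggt
Dkk2 (chr3:132085042-132085291, plus strand): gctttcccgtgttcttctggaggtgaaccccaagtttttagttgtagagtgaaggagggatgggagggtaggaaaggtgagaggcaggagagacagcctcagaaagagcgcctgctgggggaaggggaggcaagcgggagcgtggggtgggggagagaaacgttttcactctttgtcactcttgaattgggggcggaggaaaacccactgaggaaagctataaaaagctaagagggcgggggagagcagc
Rspo4 (chr2:151842677-151842926, plus strand): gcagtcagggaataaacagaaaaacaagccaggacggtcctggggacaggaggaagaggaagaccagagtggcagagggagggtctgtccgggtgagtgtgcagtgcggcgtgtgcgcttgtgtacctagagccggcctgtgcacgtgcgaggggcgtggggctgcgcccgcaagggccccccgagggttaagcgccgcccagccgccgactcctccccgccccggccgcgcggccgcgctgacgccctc
Ror1 (chr4:100095541-100095790, plus strand): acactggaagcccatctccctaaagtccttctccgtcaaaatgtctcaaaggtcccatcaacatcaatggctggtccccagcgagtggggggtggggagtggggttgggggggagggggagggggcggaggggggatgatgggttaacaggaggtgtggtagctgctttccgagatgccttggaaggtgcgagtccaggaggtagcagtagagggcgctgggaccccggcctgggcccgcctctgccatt
Fzd7 (chr1:59481897-59482146, plus strand): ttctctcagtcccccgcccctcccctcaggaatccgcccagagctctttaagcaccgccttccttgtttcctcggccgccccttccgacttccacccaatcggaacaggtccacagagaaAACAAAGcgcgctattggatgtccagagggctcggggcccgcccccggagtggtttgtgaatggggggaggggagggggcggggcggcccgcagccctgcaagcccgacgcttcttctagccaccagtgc
Of these 6 stretches that of Fzd7 held 1 such word, 130 bases before the RefSeq start and on the minus strand. That stretch ends at base 59482146, while the gene as counted begins at base 59482424. Bases just after that RefSeq start were not found in an annotated Fzd7 transcript, unlike those of the other genes shown, so this start is unchecked. The table held 36 windows of 250 bases before a start for 33 of the members, and 4 of them (11.1%) held a word, against 14.8% of all 32841 windows in the table. The other 3 belonged to Dkk1, Wnt11 and Wnt5b. The median GC content was 66.8% in the members' windows and 52.4% in all windows. It was 59.0% for members higher in KD than in WT EBs and 69.6% for those lower. A word is only a match of letters, and its absence says nothing of the region outside the window.

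Libraries held 25.4 to 37.8 M counts, and 20021 to 23548 genes had at least 1. A count of 0 allows up to 3 counts for counting error alone. That is 0.079 to 0.12 per 1 M of the total count, depending on the library and before normalisation. Levels are given as CPM (counts scaled to 1 M of the normalised library size). Kat6b, the host gene, was at 56.3 to 75.8 CPM in WT ESCs and at 84.6 to 91.0 CPM in KD ESCs (log2 difference 0.41, SE 0.10, adjusted p = 0.089), and at 34.6 to 36.8 and 69.0 to 71.9 CPM in WT and KD EBs (0.98, SE 0.06, adjusted p = 2.6e-15). The libraries were made from poly-A mRNA, so circKat6b-e2 itself was not measured and these values do not check the knockdown. The second WT ESC library stood apart from its replicates, with a chi-square per gene of 60.9 and 61.7 against them, where all other replicate pairs lay between 5.0 and 9.6. The 9 pluripotency markers summed to 4249 to 4873 CPM in WT ESCs and 5135 to 5194 CPM in KD ESCs, and to 187 to 195 CPM in WT EBs and 348 to 380 CPM in KD EBs.

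Most of the 50 mRNAs lay at a higher level in EBs than in ESCs, although 33 of them passed the filter on low counts in ESCs. Levels of different genes were compared as CPM per kilobase of exon (CPM per kb), scaled over all 12 libraries. In WT ESCs the highest level of the set was that of Sfrp1 (chr8:23411502-23449632), a secreted WNT-binding protein, at 29.2 ± 0.61 CPM per kb (SD, n = 3). It made up 74.2% of the summed level of the 10 inhibitors in WT and in KD ESCs. The co-receptor Ror2 followed at 8.02 ± 0.40 CPM per kb, then the receptors Fzd5 at 5.72 ± 0.98 and Fzd7 at 4.74 ± 0.22, which did not differ beyond their spread. Among ligands Wnt6 stood at 3.10 ± 0.24 and Wnt5b at 1.62 ± 0.17 CPM per kb, and together with 17 others the ligands summed to 8.12 ± 0.60 CPM per kb. In WT EBs the order was another one: Fzd7 (37.5 ± 0.36), Fzd2 (30.6 ± 0.32), Ror2 (21.7 ± 0.69), Lrp5 (15.5 ± 0.31) and the inhibitor Dkk1 (13.2 ± 0.47 CPM per kb) led. Sfrp5 (11.1 ± 1.12) and Frzb (11.2 ± 0.60), inhibitors of the SFRP family, did not differ from each other beyond their spread.

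**Figure D1:**
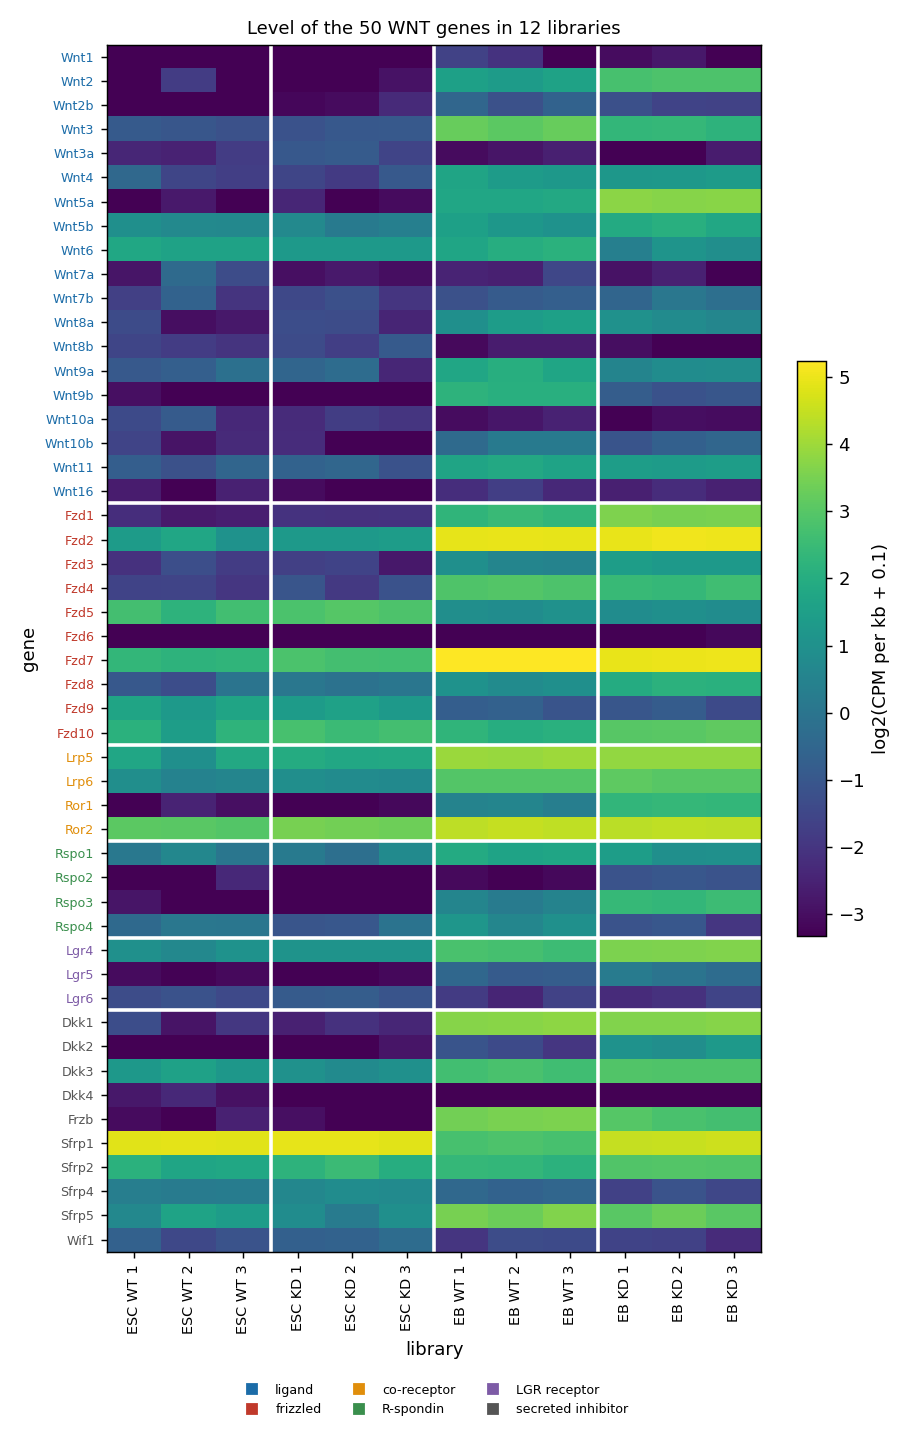
Level of each of the 50 genes (rows, grouped and coloured by role) in each of the 12 libraries (columns), as log2 of CPM per kb plus 0.1, scaled over all 12 libraries; lighter is higher. Most ligands and frizzled receptors are lighter in the 6 EB columns than in the 6 ESC columns, while Sfrp1 is light in the ESC and KD EB columns and darker in the 3 WT EB columns.

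In ESCs the knockdown moved no member past the threshold, an adjusted p under 0.05 in edgeR's quasi-likelihood test adjusted over all genes. Of the 50 members 33 were tested and 0 were called, while 0.168% of the 16081 genes tested were called higher and 0.435% lower. At an unadjusted p under 0.05 there were 7 members and 3447 genes, and DESeq2 called 3 members and 1030 genes. The receptors Ror2 and Fzd7 came nearest. Ror2 was at 30.1, 29.3 and 27.6 CPM in WT and at 40.3, 38.9 and 36.7 CPM in KD ESCs (log2 difference 0.41, SE 0.09, adjusted p = 0.072). Fzd7 was at 19.1, 17.5 and 18.4 CPM in WT and at 27.2, 24.3 and 24.2 CPM in KD ESCs (0.46, SE 0.11, adjusted p = 0.077). In both genes every KD library lay above every WT library. Without the second WT ESC library, Fzd10 (0.46), Fzd7 (0.43) and Ror2 (0.42) were called higher and none lower, 3 of the 34 members then tested, where 9.35% of the 16648 genes tested were called. Sfrp1 was at 107, 111 and 108 CPM in WT and at 113, 113 and 108 CPM in KD ESCs (0.03, SE 0.07).

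In EBs, by contrast, 33 of the 50 members were called, 16 higher and 17 lower in KD than in WT. Of the 43 members tested these were 37.2% and 39.5%, where 28% of all 17355 genes tested were called higher and 27.7% lower. The median log2 difference was -0.11 over the members and 0.00 over all genes, and its median size without regard to sign was 0.74 and 0.34. The members that rose most were Rspo2, Dkk2, Rspo3, Wnt5a, Ror1, Sfrp1, Wnt2, Fzd1 and Fzd8, each by at least 1 on the log2 scale. Those that fell by at least 1 were Wnt9b, Rspo4, Wnt6, Wnt9a and Sfrp4. In bulk samples a smaller number of cells of a type and less RNA per cell cannot be told apart, and cell type markers differed between the same libraries. The 9 pluripotency markers, at the sums given above, had 8 called higher in KD EBs and none lower, with Esrrb at 2.64 (SE 0.11) and Klf2 at 2.61 (SE 0.11). The 11 markers of lateral mesoderm and mesenchyme summed to 1488 to 1508 CPM in WT and 2586 to 2668 CPM in KD EBs, with 9 called higher and 1, Hand1, lower. The 5 epithelial markers summed to 2875 to 2991 and 1994 to 2117 CPM, and all 5 were called lower. The 5 cardiac muscle markers summed to 45.6 to 50.5 and 11.4 to 13.8 CPM, with 4 called lower. The 7 markers of primitive streak and paraxial mesoderm summed to 23.7 to 25.6 and 50.1 to 53.7 CPM, with 4 called higher and 1 lower. The 8 markers of extraembryonic endoderm summed to 402 to 412 and 692 to 712 CPM (4 higher, 3 lower), and the 7 of trophoblast to 850 to 858 and 620 to 638 CPM (2 higher, 3 lower). The 5 neural crest markers summed to 37.5 to 40.5 and 27.5 to 29.0 CPM (1 higher, 3 lower), and the 7 of endothelium and blood to 60.2 to 67.7 and 86.2 to 95.4 CPM (3 higher, 2 lower). The 8 neural markers summed to 79.0 to 83.2 and 98.3 to 103 CPM (2 higher, 1 lower), and the 6 of definitive endoderm to 171 to 177 and 188 to 197 CPM (2 higher, 1 lower). In WT EBs 1 streak marker and 2 endothelial or blood markers were at 0, and in KD EBs no marker was. The lists share genes: Hand1 is in the trophoblast and the lateral mesoderm lists, and Eomes in the trophoblast and the streak lists. Their sums and counts are therefore not separate observations. The part of these markers in the results on EBs was not tested.

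**Figure D2:**
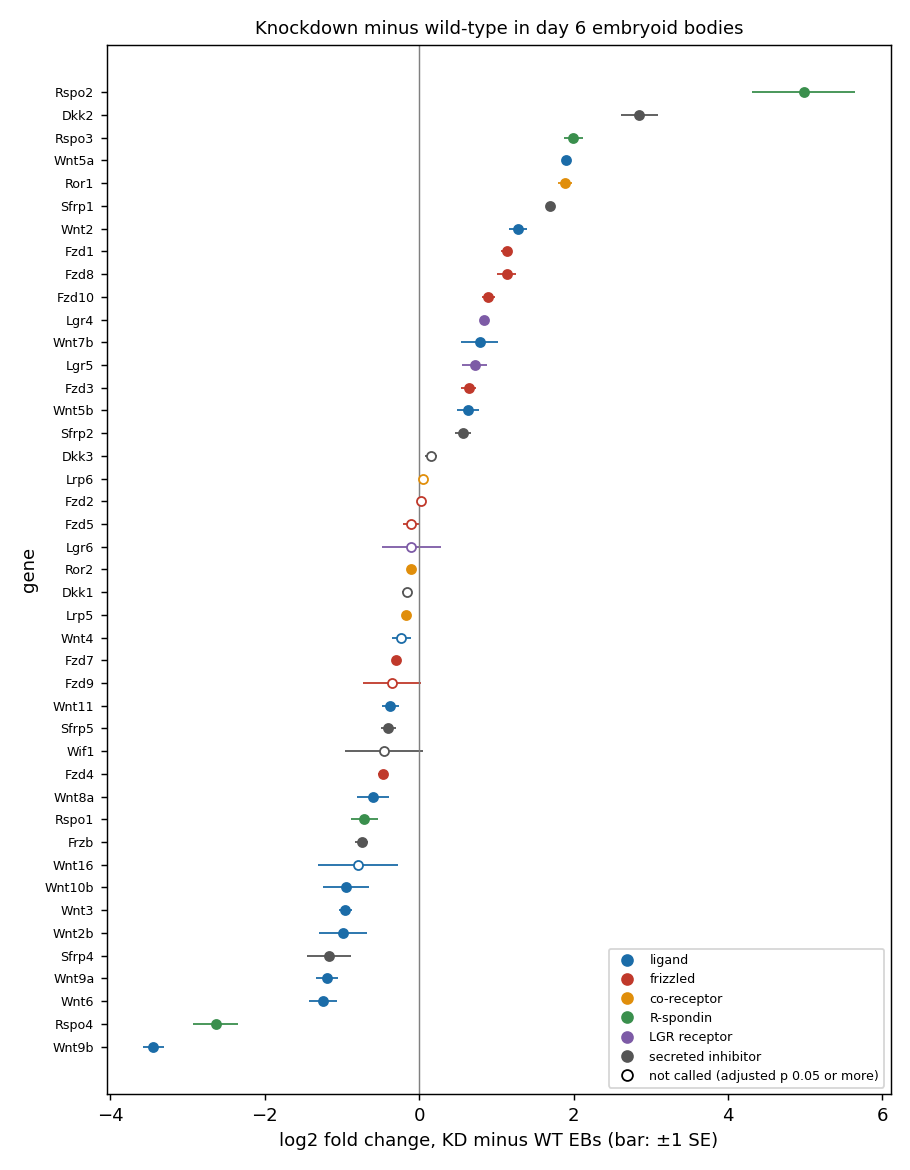
Log2 difference of KD minus WT EBs (horizontal axis, bars ± 1 SE, 3 libraries a group) for the 43 members tested, coloured by role and ordered by size; open circles were not called. Rspo2 lies at the top at 4.98 and Wnt9b at the bottom at -3.44.

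The ligands split by gene. Of the 14 ligands tested in EBs 4 rose (28.6%), 8 fell (57.1%) and 2 were not called, where 28% of all genes rose and 27.7% fell. Wnt5a (chr14:28504750-28527448), the ligand best known for signalling through ROR receptors, was at 30.7, 30.8 and 32.6 CPM in WT and at 122, 114 and 116 CPM in KD EBs (log2 difference 1.91, SE 0.05, adjusted p = 8.1e-24). Wnt2 (chr6:17988940-18030585), a ligand of the beta-catenin branch with a known role in the developing lung and heart, was at 7.57, 6.82 and 7.97 CPM in WT and at 17.4, 18.5 and 18.4 CPM in KD EBs (1.28, SE 0.11, adjusted p = 3.7e-11). The libraries of the 2 groups did not overlap for either gene. Wnt5b (0.63, SE 0.14), the close relative of Wnt5a, and Wnt7b (0.78, SE 0.24) also rose. The call of Wnt7b was lost without the second KD EB library.

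Wnt9b (chr11:103727364-103749821), known for its role in kidney tubule formation, fell most of all members. It was at 24.4, 22.2 and 22.5 CPM in WT and at 2.51, 1.77 and 2.04 CPM in KD EBs (log2 difference -3.44, SE 0.14, adjusted p = 1.5e-19). Its neighbour Wnt3 (chr11:103774150-103817957), the ligand needed for the primitive streak, was at 34.5, 30.9 and 34.9 CPM in WT and at 17.8, 17.9 and 16.0 CPM in KD EBs (-0.96, SE 0.08, adjusted p = 3.6e-11). For both genes all WT libraries lay above all KD libraries. Wnt6 was at 8.34, 10.5 and 11.3 CPM in WT and at 3.01, 5.19 and 4.50 CPM in KD EBs (-1.25, SE 0.18, adjusted p = 8.8e-07). Wnt9a was at 13.1, 16.0 and 12.6 CPM in WT and at 5.15, 6.40 and 6.66 CPM in KD EBs (-1.19, SE 0.14, adjusted p = 1.2e-08). The groups of Wnt6 and Wnt9a did not overlap either. The other 4 ligands that fell were Wnt2b (-0.99), Wnt10b (-0.95), Wnt8a (-0.60) and Wnt11 (-0.37). The call of Wnt8a, a ligand known from the streak, was lost without WT EB library 2, WT EB library 3 or KD EB library 3. Wnt4 (-0.23, SE 0.12, adjusted p = 0.11) and Wnt16 (-0.80, SE 0.52, adjusted p = 0.20) were not called. The 5 ligands not tested in EBs, Wnt1, Wnt3a, Wnt7a, Wnt8b and Wnt10a, were each under 1 CPM in every EB library.

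Wnt3 and Wnt9b stand 24329 bases apart on opposite strands, and 3 more pairs of ligand genes lie within 100 kb of each other. In each of these pairs 1 gene fell in KD EBs and the other was too low to test: Wnt9a beside Wnt3a on chromosome 11 (a gap of 16176 bases), Wnt6 beside Wnt10a on chromosome 1 (6194 bases) and Wnt10b beside Wnt1 on chromosome 15 (11707 bases). Thus 5 of the 8 ligands that fell, and none of the 4 that rose, belong to such a pair. This is a description of 8 genes, and was noticed after their values were seen.

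Scaled over all 12 libraries, the summed ligand level of KD EBs lay 0.98 CPM per kb above that of WT EBs, with overlapping libraries. The sign of this difference depends on the scaling. Normalisation factors over all 12 libraries were 1.184 to 1.191 in WT and 1.147 to 1.158 in KD EBs. Within EBs they were 0.994 to 0.996 and 1.005. The shares of Wnt5a, Wnt2, Wnt3 and Wnt9b, which do not depend on the scaling, did not overlap. The 19 ligands summed to 39.8 ± 0.56 CPM per kb in WT and 40.8 ± 0.80 in KD EBs (SD, n = 3 each). In WT EBs Wnt3 held the highest share, 22.9 ± 1.4%, followed by Wnt9b (10.7 ± 0.64%), Wnt6 (9.6 ± 1.4%), Wnt9a (8.8 ± 1.2%) and Wnt5a (8.4 ± 0.19%), the last 3 of which did not differ beyond their spread. In KD EBs Wnt5a held 32.2 ± 1.6%, Wnt2 17.2 ± 0.53% and Wnt3 11.98 ± 0.61%, and Wnt9b held 1.0 ± 0.19%. These 4 ligands were picked by their values, so their shares are a description with no test. The shares of Wnt2b, Wnt5b, Wnt6, Wnt7b, Wnt9a, Wnt10b and Wnt11 did not overlap either. Shares of 1 sum depend on each other. For how many of all genes the EB groups did not overlap was not counted, and 55.7% of all genes tested were called in EBs. A lack of overlap is therefore no trait of these genes. Those of all other ligands overlapped, among them Wnt4 (5.64% to 7.91% in WT and 5.499% to 6.178% in KD EBs) and Wnt8a (4.65% to 7.05% and 3.55% to 4.76%). The summed level, scaled over all 12 libraries, gave p = 0.2 in an exact two-sided permutation test, which cannot go below 0.1 with 3 against 3 libraries. In ESCs Wnt6 held 38.2 ± 1.9% in WT and 35.2 ± 2.8% in KD, and Wnt5b 19.96 ± 1.1% and 18.6 ± 3.1%.

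**Figure D3:**
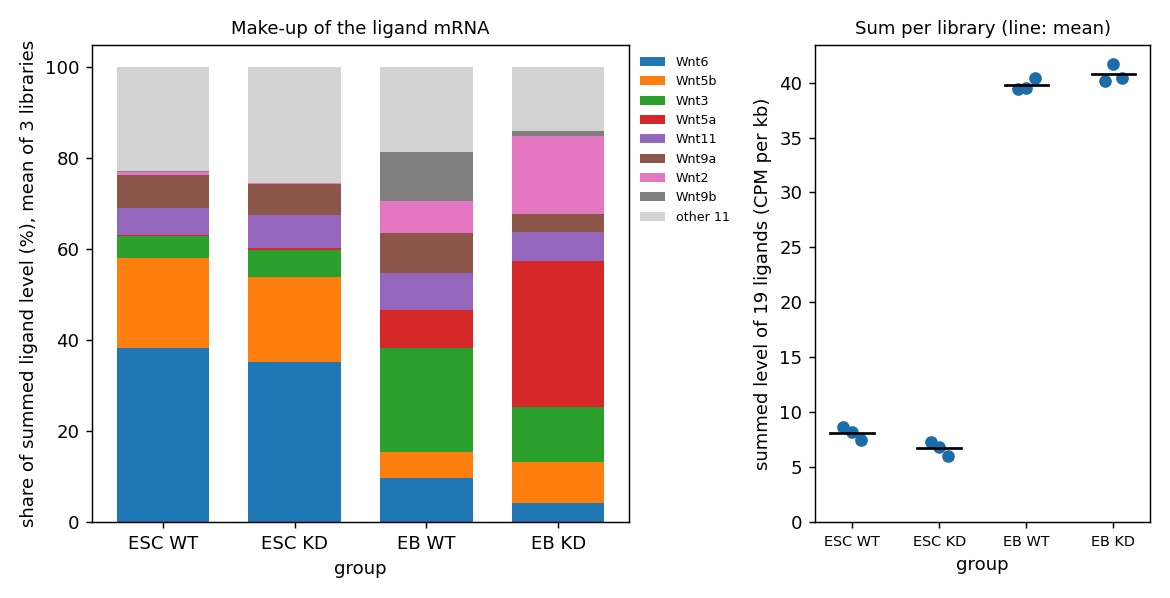
Left, mean share (%) of each ligand in the summed level of the 19 ligands, per group of 3 libraries, with the ligands that never reached 8% pooled in grey; right, that sum per library in CPM per kb, with the line at the mean. Scaled over all 12 libraries, the 2 EB groups have sums of 39.8 and 40.8, and the share of Wnt5a is 8.4% in one and 32.2% in the other.

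Among frizzled receptors 4 of the 9 tested rose in KD EBs (44.4%), 2 fell (22.2%) and 3 were not called, against 28% and 27.7% of all genes. Fzd1 was at 23.7, 27.6 and 24.4 CPM in WT and at 57.9, 53.8 and 54.5 CPM in KD EBs (log2 difference 1.14, SE 0.07, adjusted p = 1.4e-14). Fzd8 was at 7.88, 6.62 and 7.25 CPM in WT and at 14.5, 16.9 and 16.2 CPM in KD EBs (1.13, SE 0.12, adjusted p = 2.3e-09). All KD libraries lay above all WT libraries for both, and Fzd10 (0.90, SE 0.09) and Fzd3 (0.64, SE 0.10) rose by less. Fzd7 (chr1:59482424-59486955), shown above with a TCF word before its unchecked RefSeq start, fell from 205, 202 and 202 CPM to 162, 164 and 167 CPM (-0.30, SE 0.04, adjusted p = 1.1e-08). Its share of the summed frizzled level was 41.5% in WT and 32.3% in KD EBs, and that of Fzd2 was 33.9% and 33.0%. Fzd4, the receptor best known from retinal vessels, fell by 0.47 (SE 0.06). Fzd2 (0.02), Fzd5 (-0.10) and Fzd9 (-0.35) were not called. Fzd6 had 2 counts in all 12 libraries, both in 1 KD EB library.

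Of the co-receptors only Ror1 (chr4:100095791-100444765), a receptor tyrosine kinase that binds WNT5A, moved by more than 0.2 on the log2 scale in EBs. It was at 9.03, 9.63 and 8.05 CPM in WT and at 32.4, 34.1 and 32.5 CPM in KD EBs (1.89, SE 0.09, adjusted p = 3.5e-17). Ror2, its relative and the co-receptor at the highest level, was at 107, 114 and 109 CPM in WT and at 99.1, 104 and 102 CPM in KD EBs (-0.11, SE 0.04, adjusted p = 0.027). That call was lost without the second WT or the first KD EB library and with scaling by library size alone. Lrp5 fell by 0.17 (SE 0.04, adjusted p = 1.8e-04), and Lrp6 was not called (0.05, SE 0.04). Per kilobase Ror1 made up 10.3% of the summed co-receptor level in KD EBs, and Ror2 43.1% there and 47.0% in WT EBs.

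All 4 R-spondins were called in EBs, in opposite directions, where 55.7% of all genes tested were called. Rspo3 (chr10:29452416-29535867) was at 5.14, 4.04 and 4.92 CPM in WT and at 18.6, 17.7 and 20.2 CPM in KD EBs (log2 difference 2.00, SE 0.13, adjusted p = 1.7e-14). Rspo2 (chr15:43020811-43170818), known for its part in limb and lung formation, had 2, 0 and 2 counts in WT and 44, 46 and 44 counts in KD EBs (4.98, SE 0.66, adjusted p = 1.6e-07). With so few counts in WT EBs the size for Rspo2 is uncertain, although no library of one group reached the other. Rspo4 (chr2:151842927-151874668), known for its role in nail formation, fell from 6.10, 4.04 and 5.23 CPM to 0.96, 1.08 and 0.43 CPM (-2.64, SE 0.29, adjusted p = 3.9e-09). Rspo1 fell by 0.71 (SE 0.18, adjusted p = 9.7e-04). Per kilobase the highest R-spondin level was that of Rspo1 in WT EBs (3.28 ± 0.34 CPM per kb) and that of Rspo3 in KD EBs (5.31 ± 0.38). Of the receptors that bind R-spondins, Lgr4 was at 47.8, 45.7 and 40.8 CPM in WT and at 79.0, 80.8 and 81.2 CPM in KD EBs (0.84, SE 0.06, adjusted p = 6.9e-14). Lgr5, a marker of intestinal stem cells, rose by 0.72 (SE 0.16), and Lgr6 was not called (-0.10, SE 0.38).

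Of the 9 inhibitors tested 3 were higher, 3 lower and 3 not called in KD EBs. These are 33.3% in each direction, near the 28% and 27.7% of all genes tested that were called higher and lower. Sfrp1 was at 34.9, 37.4 and 34.5 CPM in WT and at 112, 114 and 120 CPM in KD EBs (log2 difference 1.69, SE 0.05, adjusted p = 1.4e-22). Dkk2 (chr3:132085292-132180304), whose start region is shown above, was at 1.65, 1.26 and 0.69 CPM in WT and at 8.35, 7.59 and 10.0 CPM in KD EBs (2.85, SE 0.24, adjusted p = 2.2e-11). For both genes the groups were well apart, and Sfrp2 rose by 0.57 (SE 0.10). Frzb, at 40.8, 44.1 and 45.2 CPM in WT and 29.3, 24.995 and 23.4 CPM in KD EBs, fell by 0.74 (SE 0.08, adjusted p = 2.6e-09). Sfrp4, at 3.18, 2.71 and 3.05 CPM in WT and 1.06, 1.71 and 1.22 CPM in KD EBs, fell by 1.17 (SE 0.28, adjusted p = 6.7e-04). Both genes had all KD libraries under all WT libraries, and Sfrp5 fell by 0.40 (SE 0.10). Dkk1, a known target of beta-catenin signalling as well as its inhibitor, was at 37.0, 38.4 and 39.6 CPM in WT and at 34.1, 33.8 and 35.2 CPM in KD EBs (-0.16, SE 0.07, adjusted p = 0.055). Dkk3 (0.15, SE 0.08) and Wif1 (-0.45, SE 0.51) were not called either, and Dkk4 had 0 counts in all 6 EB libraries. The share of Sfrp1 in the summed inhibitor level was 12.5 ± 0.61% in WT and 33.6 ± 1.1% in KD EBs.

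Between stages, 32 of the 50 members were higher in WT EBs than in WT ESCs and 7 were lower, with 47 tested. These are 68.1% and 14.9% of the members tested, where 42.5% of all 18975 genes were called higher and 37.3% lower. In KD cells 35 members (74.5%) were higher and 10 (21.3%) lower, where 42.5% of all genes were higher and 37.3% lower. A member could enter the test through the EB libraries alone: only 33 passed the filter on low counts in ESCs. Over both lines 31 members were higher in EBs in WT and in KD cells and 7 lower in both. The median log2 difference of EBs minus ESCs was 2.25 over the members and 0.17 over all genes in WT, and 2.31 and 0.15 in KD cells. Scaling by library size alone moved the median of all genes to 0.70 in WT and 0.52 in KD cells, and gave 36 members higher and 4 lower in WT cells; all genes called were then 65.2% higher in WT and 61.9% in KD cells, against 53.3% and 53.2%.

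Several members went from almost no counts in ESCs to a clear level in EBs. Wnt5a had 9 counts over the 3 WT ESC libraries, all in the second, and 3.36 ± 0.12 CPM per kb in WT EBs (log2 difference 7.82, SE 0.54). Wnt2b had 0 counts in WT ESCs and was at least 56.4-fold higher in WT EBs, and Dkk2, also at 0 there, at least 26.7-fold, against a floor of 3 counts over the group. In KD cells Rspo3 had 0 counts in ESCs and was at least 409-fold higher in EBs, and Wnt9b at least 45.9-fold. For Ror1 the ratio in KD cells was 1074 (95% counting interval 297 to 8872), from 2 counts in ESCs. Receptors with counts in both stages also rose in WT cells: Fzd1 by 5.92 (SE 0.19), Fzd4 by 5.14 (SE 0.21), Fzd2 by 3.57 (SE 0.13), Fzd7 by 2.98 (SE 0.07), Lrp5 by 2.42 (SE 0.17), Lrp6 by 2.35 (SE 0.10) and Ror2 by 1.43 (SE 0.07). Wnt3 rose by 4.54 (SE 0.16), and the inhibitor Dkk1 by 6.18 (SE 0.27). Of the other ligands Wnt8a rose by 4.21 (SE 0.57), Wnt4 by 2.83 (SE 0.36), Wnt11 by 2.75 (SE 0.22) and Wnt9a by 2.62 (SE 0.43) in WT cells. The R-spondin receptors Lgr5 and Lgr4 rose by 5.26 (SE 0.47) and 1.84 (SE 0.10), and the inhibitor Sfrp5 by 2.25 (SE 0.23). In KD cells the same receptors rose by 7.32 (SE 0.54) and 2.56 (SE 0.10).

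A few members were lower in EBs. In WT cells Sfrp1 fell by 2.099 (SE 0.06), Fzd9 by 2.63 (SE 0.26) and Fzd5 by 1.68 (SE 0.12), and in KD cells Fzd9 fell by 2.78 (SE 0.27) and Fzd5 by 2.07 (SE 0.12). Wnt10a and Wnt8b, at 1.47 CPM or less in every ESC library when scaled over all 12 libraries, were lower in both lines, as were Sfrp4 and Lgr6. With 1 library left out or by library size alone, the calls in WT cells were lost for Lgr6, Wnt8b, Wnt10a and Sfrp4. In KD cells Wnt3a (-4.13, SE 0.98), Wif1 (-1.67, SE 0.49) and Wnt6 (-0.48, SE 0.21) were lower too, and the call of Wnt6 was lost in 10 of 17 alternatives.

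The response to the knockdown itself differed between the stages for 14 members, 7 toward higher and 7 toward lower in EBs. These are 14.9% of the 47 tested in each direction, where 12.8% of all genes were called higher and 10.2% lower in this contrast; with library size alone the higher share of all genes called went from 55.6% to 35.3%. Sfrp1 had the smallest adjusted p of the members. It was at 29.2 ± 0.61 CPM per kb in WT and 29.7 ± 0.70 in KD ESCs, and at 6.82 ± 0.29 in WT and 23.0 ± 0.89 in KD EBs, so the 3 WT EB libraries lay apart from the other 9. The difference of the knockdown's effect was 1.73 (SE 0.08, adjusted p = 3.4e-09). From ESCs to EBs Sfrp1 fell by 2.099 in WT and by 0.37 (SE 0.06) in KD cells, and the latter call was lost with library size alone (adjusted p = 0.97). Fzd7 differed the other way, by -0.70 (SE 0.09, adjusted p = 4.7e-05), and Ror2 by -0.46 (SE 0.09, adjusted p = 0.0023). Fitted by stage, both lay higher in KD than in WT ESCs without a call and were called lower in EBs. In the fit of all 12 libraries, which gave these differences, both were called higher in KD ESCs. The values there were 0.45 for Fzd7 (adjusted p = 0.0018) and 0.40 for Ror2 (adjusted p = 0.0044). In that fit Ror2 was not called in EBs. Wnt3 differed by -0.92 (SE 0.23), Sfrp4 by -1.62 (SE 0.32), Wnt5b by 1.08 (SE 0.29) and Lgr4 by 0.73 (SE 0.14). The larger fitted values of Rspo2, Rspo3, Ror1 and Wnt2b rest on 0 to 15 counts per ESC group, so their size depends on the prior count of the fit.

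**Figure D4:**
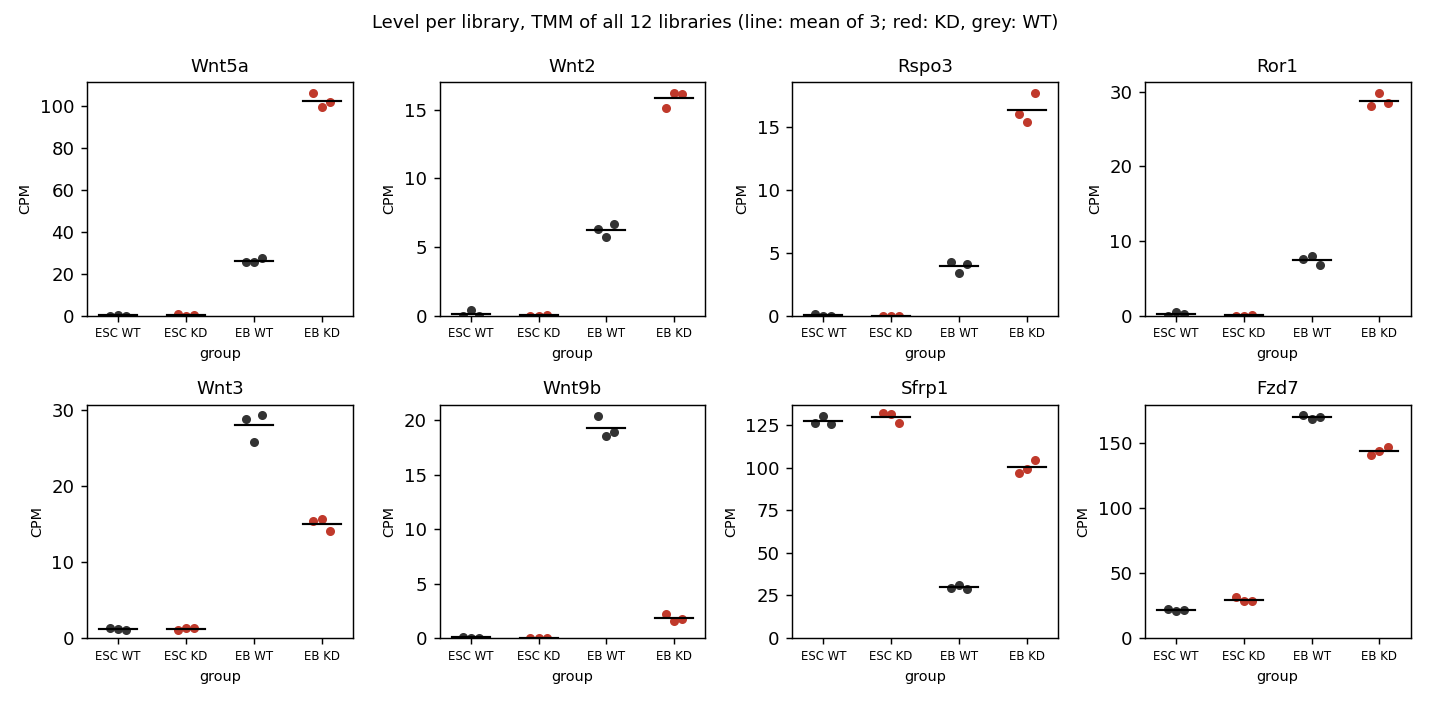
CPM of 8 members in each library (points; black lines are means of 3 libraries, red KD and grey WT), scaled over all 12 libraries, so EB levels differ from the values scaled within EBs. Wnt5a, Wnt2, Rspo3, Ror1 and Sfrp1 lie higher in the 3 KD EB libraries than in the 3 WT EB libraries, and Wnt3, Wnt9b and Fzd7 lie lower.

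The rest of the pathway was read from 4 lists, against 28% of all genes called higher and 27.7% lower in KD EBs. Among 23 genes of WNT secretion and of the cell surface outside the set, 7 of 19 tested rose and 8 fell in KD EBs. Wls, which carries WNTs to the surface, rose by 0.46 (SE 0.03), and Porcn, which adds their lipid, fell by 0.60 (SE 0.08). Reck rose by 1.07 (SE 0.04) and the glypican gene Gpc6 by 1.37 (SE 0.07), and Kremen1, a receptor for DKK proteins, fell by 0.58 (SE 0.06) and Ptk7 by 0.39 (SE 0.03). Of 30 genes of the beta-catenin branch inside the cell 13 rose and 6 fell, with the co-repressors Tle2 at 1.41 (SE 0.13) and Tle3 at 0.38 (SE 0.03) and the beta-catenin regulator Amer1 at 0.65 (SE 0.04), against Tcf7 at -0.54 (SE 0.05), Dvl1 at -0.28 (SE 0.05) and Csnk1e at -0.25 (SE 0.04). Of 14 tested genes of the planar cell polarity branch 5 rose and 7 fell, with Daam2 at 1.17 (SE 0.07), Prickle2 at 0.75 (SE 0.12) and Prickle1 at 0.53 (SE 0.04), against Celsr2 at -1.34 (SE 0.08), Vangl2 at -0.54 (SE 0.05) and Scrib at -0.30 (SE 0.04). Of 16 tested targets of WNT signals 10 rose and 4 fell: Sp5 (1.52, SE 0.12), Myc (1.06, SE 0.08) and Cdx2 (1.01, SE 0.06) were the risers with the smallest adjusted p, and Ascl2 (-1.91, SE 0.32), Rnf43 (-0.66, SE 0.12) and Tcf7 fell. Axin2, a widely used target, rose by 0.23 (SE 0.06). The target list shares genes with others, so its counts are not separate from theirs. Axin2, Lef1, Nkd1 and Tcf7 are also in the beta-catenin list, and Notum, Znrf3 and Rnf43 in the surface list. T, Tbx6 and Msgn1 are also streak markers, and Cdx2 and Ascl2 trophoblast markers. In ESCs, where no member was called, the targets Sp5 (0.93, SE 0.18) and Myc (0.84, SE 0.16) rose and the polarity gene Celsr2 fell by 1.94 (SE 0.18).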

How the data were processed

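The authors deposited raw counts per gene, separately for ESCs and EBs. HISAT2 2.1.0 with mm10 and featureCounts 2.0.3 were used, per the submitters' processing notes. Per the file headers, the Ensembl release 90 annotation of GRCm38 was used, with no strand option. Wnt5a, Rspo3, Sfrp2, Fzd5, Wnt7b and Wnt11 share exon bases with genes on the other strand. Reads there cannot be assigned by strand. Over the 12 libraries those genes held 353 counts (Wnt5a itself 14345), 1 (Rspo3 2265), 75 (Sfrp2 4377), 9 (Fzd5 9776), 10 (Wnt7b 775) and 0 (Wnt11 3041). Low counts were mostly even (61.7% to 68.7% of counts from 1 to 10), so both mates of a pair appear to enter the deposited counts. Symbols were matched to 52403 of 52636 identifiers.

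For each stage alone, 6 libraries were fitted with edgeR 4.0.16 in R 4.3.3 (quasi-likelihood F-test of KD against WT; TMM, robust, filterByExpr with a minimum count of 10 and total of 15), adjusted over all genes by Benjamini-Hochberg. Stage and the difference of the KD effect came from 1 fit of all 12 libraries. SE is the absolute log2 fold change over the square root of F. CPM of KD against WT were scaled within a stage, but levels per kb and their sums over all 12 libraries. Same replicate numbers did not pair the libraries (correlations from -0.075 to 0.081). p-values cover the spread between these libraries. Named in full were called members changed by at least 1 on the log2 scale and those at the highest level per role; of other lists, the 3 called genes with the smallest adjusted p in each direction. Axin2 and members named beyond this were chosen after their values were seen. Members and lists were chosen with earlier results of these data known. Alternatives were DESeq2 1.42.0, RLE, library size alone, no filter, a replicate block, a fit of all libraries and leaving out each library.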

Additional observations from a re-analysis of the deposited data

Results flagged for a closer look

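The effect of the knockdown differed between EBs and ESCs for 14 members by edgeR's test of the difference itself, given here as the log2 effect in EBs minus that in ESCs. It was higher in EBs for Rspo2 (9.779), Rspo3 (5.815), Ror1 (4.602), Sfrp1 (1.727), Wnt5b (1.079), Lgr4 (0.726) and Dkk3 (0.664). It was lower in EBs for Wnt2b (-6.595), Rspo4 (-1.974), Sfrp4 (-1.617), Fzd4 (-0.928), Wnt3 (-0.919), Fzd7 (-0.697) and Ror2 (-0.455).

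The values of 4 of these rest on ESC counts near 0. Rspo2 had 8 counts in WT and 0 in KD ESCs, Rspo3 4 and 0, Ror1 15 and 2, and Wnt2b 0 and 15, and all counts of Rspo2 in WT ESCs came from 1 library. The call of Rspo2 was lost without the third WT ESC library (adjusted p = 0.9999), that of Rspo3 without the first WT or any of the KD ESC libraries, that of Ror1 without the second WT ESC library (adjusted p = 0.063) and that of Dkk3 without the second KD ESC library (adjusted p = 0.053). Rspo4 lost its call without the third KD ESC, the first WT EB or the third KD EB library. Fzd4 lost it in 9 of 17 alternatives. Sfrp1, Fzd7, Ror2, Wnt3, Sfrp4, Wnt5b, Lgr4 and Wnt2b kept their call in all 17. The highest adjusted p over these alternatives was 0.047 for Wnt2b and 0.047 for Wnt5b. The KD ESC libraries held 1, 2 and 12 counts of Wnt2b, so most came from 1 library.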

How the results depend on the processing

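No called member changed direction under any alternative run. The count of members called in ESCs, 0, became 3 with DESeq2, 5 with no filter on low counts and 5 in the fit of all 12 libraries, and 0 to 3 with 1 library left out (3 without the second WT ESC library). The genes called among all tested went from 97 to 1030, 1769, 1999 and, without that library, 1557. Those called were Fzd10, Fzd7 and Ror2, joined with no filter by Fzd5 and Wnt7a and in the fit of all 12 by Wnt2b and Dkk3. In EBs the 33 calls became 21 in the fit of all 12 libraries, 13 of them higher and 8 lower, where Wnt2b, Wnt7b, Wnt8a, Wnt10b, Wnt11, Rspo1, Fzd3, Fzd4, Lgr5, Lrp5, Ror2 and Sfrp5 were not called; that fit takes its spread from ESC libraries too. Leaving out 1 EB library gave 32 to 34 calls. Over all alternatives the counts were 12 to 16 for the difference between stages, 33 to 40 for EBs against ESCs in WT and 43 to 46 in KD cells. With a replicate block the counts were 0 in ESCs, 33 in EBs, 13 for the difference, 38 in WT and 44 in KD cells; the same numbers in the labels did not pair the libraries. Members under about 0.1 CPM in a group are at the limit of the depth, and if mates were counted on their own the counts overstate the number of fragments. Of all genes, the higher share of calls in ESCs went from 27.8% to 48.5% in the fit of all 12 libraries, 39.0% with no filter and 40.1% without the second WT ESC library.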

Other observations

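Some members had counts near 0 in most groups. Dkk4, a DKK inhibitor, had 2, 3 and 1 counts in the WT ESC libraries and 0 in the other 9. Wnt1 had 0 counts in all 6 ESC libraries, 32 over the WT EB libraries and 6 over the KD EB libraries. Wnt7a was at 1.82 CPM in the second WT ESC library and at 0.11 and 0.82 CPM in the other WT ESC libraries, against at most 0.14 CPM in KD ESCs.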
